A study of Danio rerio with 30 samples.

Results

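The solute carriers are the large set of membrane proteins, numbered in families, that move small molecules across cell and organelle membranes. The probes described here belong to 24 of these families, chosen by gene symbol alone: every spot whose annotated symbol, brought up to date through its synonyms, starts with slc and carries family number 7, 8, 9, 16, 17, 18, 20, 22, 23, 24, 25, 26, 29, 30, 31, 33, 35, 38, 39, 41, 44, 45, 46 or 47. The rule took 123 of the 23232 spots on the array, for 108 genes. Another 90 spots carry solute carrier symbols of other families, among them the classic carriers of sugars, peptides and bile salts. Of the 123 spots, 121 passed the filter on dim spots and were tested, for 106 genes. The spots of slc25a14 and slc35g2a did not pass, each with a Cy5 signal above background on 1 array.

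Gene expression was measured along the intestine of adult male zebrafish, which has no stomach, cut into 7 segments of roughly equal length. The rostral intestinal bulb gave S1 and S2, the mid-intestine gave S3 and S4, and the caudal intestine gave the remaining segments, where the study describes shorter and broader ridges in S6 and a smooth surface in S7. Each array carried RNA of a segment pooled from 10 fish and labelled with Cy5, beside RNA of whole wild-type fish labelled with Cy3, male and female at a ratio of 9 to 1. There were 5 arrays each of S1, S2, S3 and S4, 4 of S5 and 3 each of S6 and S7, described as biological replicates, and this number limits the precision of every value. No treatment is named for any group, and all segments shared the same reference. Values are log2 ratios of Cy5 to Cy3, so that 1 is a 2-fold excess over the whole fish and -1 a 2-fold deficit. The ratio sets a transcript against its own level in the whole fish, and the order of 2 genes by ratio is not their order by abundance. The dyes were never swapped, so a probe's dye preference stays in its ratio to the whole fish.

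Both last segments stand apart from the others on their arrays. Reference-dye signals correlated at a mean r of 0.937 among the arrays of S1 to S5 whose spots were read over 392 or 460 pixels, at 0.879 among those read over 120 pixels and at 0.908 between these classes. Between S1 to S5 and S6 or S7 the mean r was 0.136, although the reference RNA was the same. Among the arrays of S6 and S7 the mean r was 0.619, lower than within either class of S1 to S5. The spots of S6 and S7 were read over 80 pixels, and 14.9% to 89.9% of them exceeded background in Cy5, against 37.8% to 69.6% in S1 to S5. Values of S6 and S7 are therefore given last and by themselves. Among S1 to S5, the 120-pixel arrays are 2 of S1, 4 of S2 and 1 of S3. The tissue label was checked against markers: 9 of 10 enterocyte markers were at least 2-fold above the whole fish in S1 to S5, while 4 of 5 skeletal muscle markers were at least 2-fold below it. The tissue is bulk, so fewer cells of a type and less RNA per cell cannot be told apart.

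Most solute carriers work by alternating access: the protein opens to one side of the membrane, binds its cargo, and reopens to the other, often driven by a gradient of sodium or protons. In an absorptive epithelium they sit on the brush border, on the basolateral membrane, on lysosomes and secretory vesicles, and in the inner mitochondrial membrane. Family 16 carries lactate, ketone bodies and other monocarboxylates, families 7 and 38 amino acids, families 22 and 47 organic ions and drugs, family 25 the metabolites of mitochondria, families 30, 31 and 39 zinc and copper, and family 35 the sugar nucleotides used for glycosylation in the endoplasmic reticulum and Golgi. Several family 7 carriers reach the surface only as partners of the heavy chains slc3a1 and slc3a2, and several family 16 carriers with basigin.

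Over S1 to S5, 15 of the 121 probes were at least 2-fold above the whole fish and 19 at least 2-fold below it (limma, Benjamini-Hochberg adjusted p under 0.05 over 21395 tested probes). These are 12.4% and 15.7% of the probes, beside 7.58% and 11.9% of all tested probes. The median ratio of the carriers was 0.11 and their SD 1.21, beside 0.03 and 0.98 for all tested probes. Among the 88 tested probes of the other solute carrier families, 24 were up and 7 down, 27.3% and 7.95%. The monocarboxylate carriers had the highest median of the 9 groups by role, 1.08 over 7 probes, and the amino acid carriers the lowest, -0.58 over 10 probes. The median of the remaining groups lay between -0.04 for the 15 nucleotide sugar probes and 0.35 for the 9 probes of organic ions and nucleosides.

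**Figure D1:**
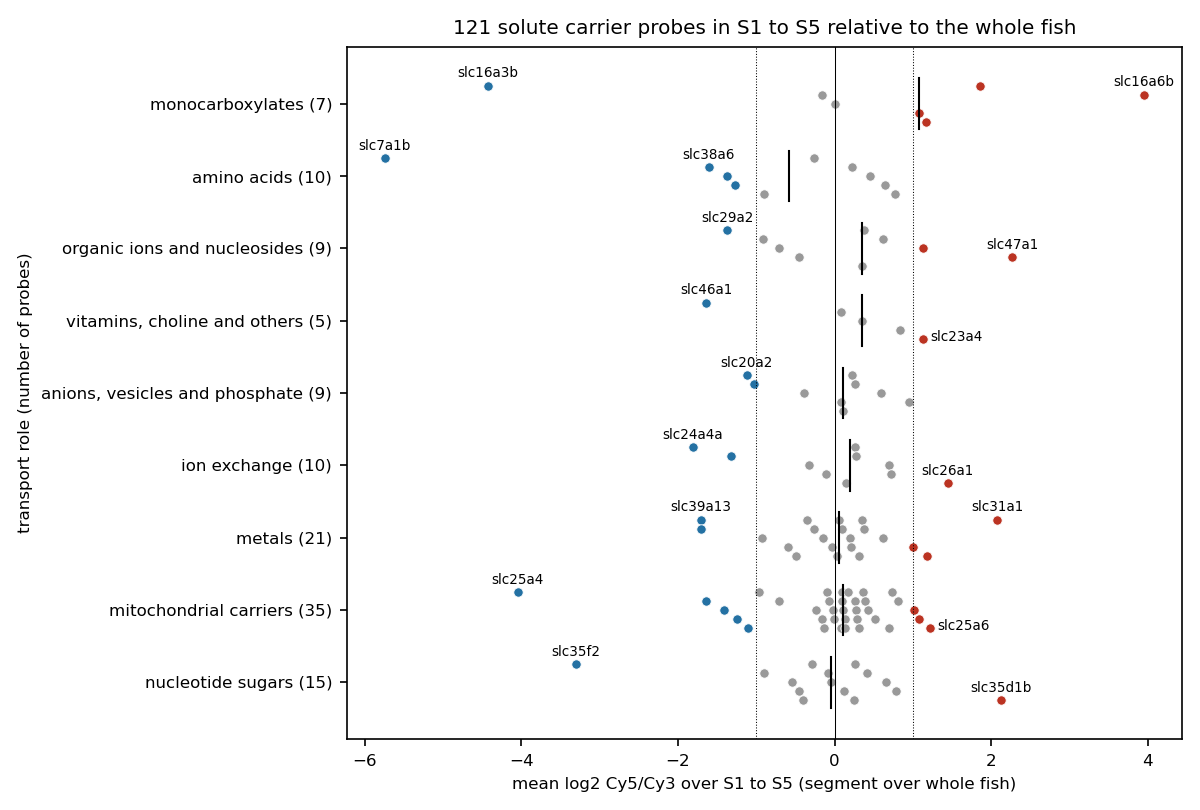
Each point is 1 of the 121 tested probes, placed by its mean log2 Cy5/Cy3 over S1 to S5 (24 arrays) and grouped by the cargo of its family, with red for at least 2-fold up, blue for at least 2-fold down, grey for the rest, dotted lines at 2-fold and a black bar at the group's median. The monocarboxylate carriers span from -4.43 for slc16a3b to 3.95 for slc16a6b, while most mitochondrial and metal carriers lie within 2-fold of the whole fish.

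The monocarboxylate family held both the highest probe of the set and the probe with the lowest ratio but one. slc16a6b, a family 16 carrier whose close relative in zebrafish liver exports the ketone body beta-hydroxybutyrate, had ratios from 2.35 to 4.92 with a median of 3.99 over the 24 arrays of S1 to S5. All 24 arrays were above background in Cy5 and far above the whole fish, and the mean was 3.95 (SE 0.11, limma adjusted p = 2.33e-19). slc16a9a and slc16a9b, paralogs of the mammalian MCT9 gene, had means of 1.86 (SE 0.08) and 1.16 (SE 0.19). The arrays of slc16a9a ran from 0.91 to 2.52, while those of slc16a9b spread from 0.00 to 3.76 around a median of 0.83. slc16a1b, the relative of MCT1, which takes up lactate, pyruvate and butyrate with protons, was at 1.08 (SE 0.07), from 0.38 to 1.77.

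slc16a3b, the relative of MCT4, which exports lactate from glycolytic muscle in mammals, went the other way at -4.43 (SE 0.21). Its median was -4.65, and its Cy5 signal exceeded background on 11 of 24 arrays. S1 was split for this gene: replicates 1, 2 and 3 had -4.67, -4.09 and -4.92, whereas replicates 4 and 5 had -1.97 and 0.20. Those 2 arrays are the 120-pixel arrays of S1, and all other arrays of S2 to S5 lay between -5.95 and -3.94. The probes of slc16a12b, a creatine carrier in mammals, had mean ratios of 0.00 and -0.15. Over all segments their Cy5 signals exceeded background on 1 and 8 arrays, so both ratios rest mostly on signals not above background. None of the 7 monocarboxylate probes passed the F test over S1 to S5, so their ratios are given as 1 level for that stretch. Basigin (bsg), the partner of MCT1 and MCT4, was at -0.05 (adjusted p = 0.347).

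**Figure D2:**
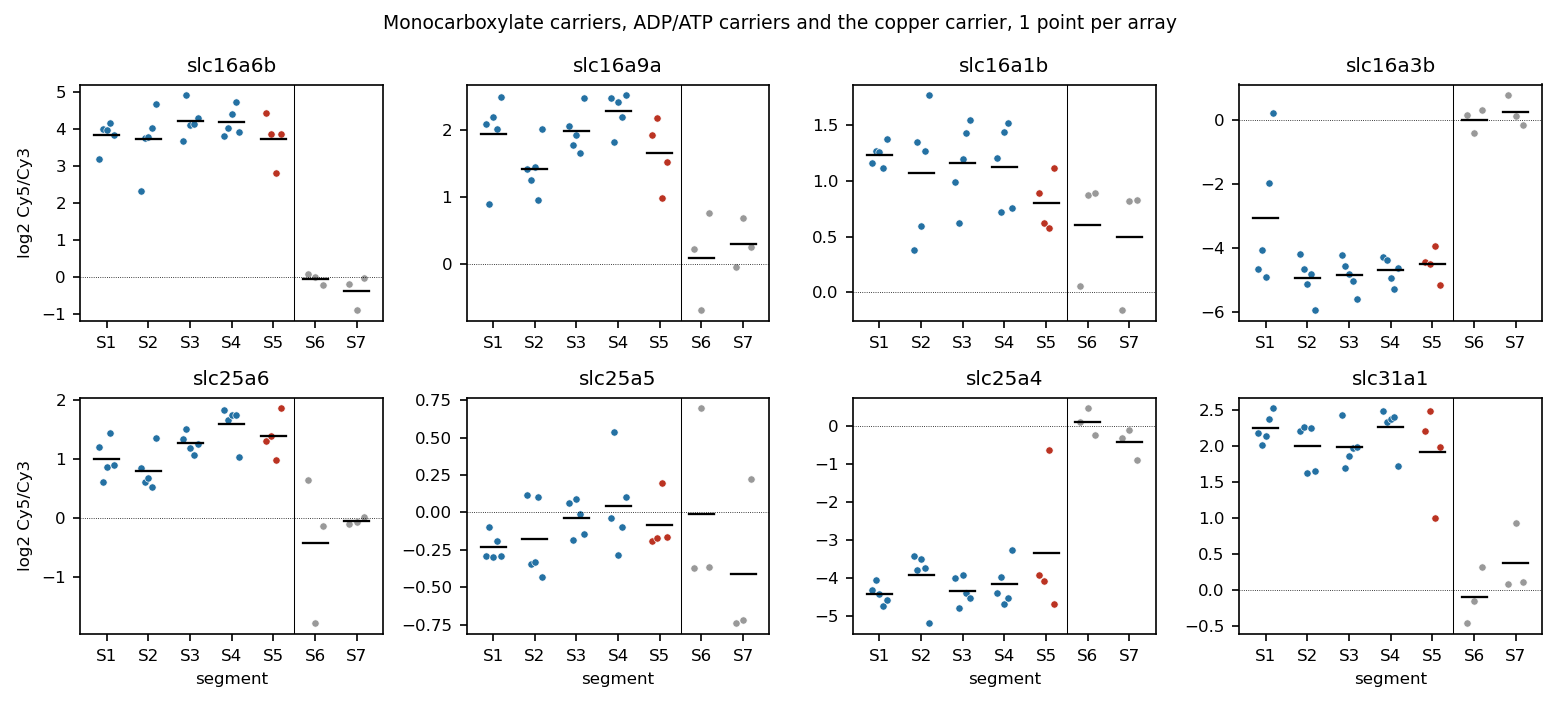
Each panel plots log2 Cy5/Cy3 of 1 probe on every array against the segment, for 4 monocarboxylate carriers, the 3 ADP/ATP carriers and the copper carrier slc31a1, and bars are segment means and a vertical line separates S5 from S6. slc16a6b stays between 2.35 and 4.92 over S1 to S5 while slc16a3b stays below -3.9 except on 2 arrays of S1, and in S6 and S7 both lie near 0.

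The amino acid carriers were mostly at or below the level of the whole fish: none of 10 probes was 2-fold up and 4 were 2-fold down. Of all tested probes, 7.58% were 2-fold up and 11.9% were 2-fold down. slc7a1b, a relative of the lysine and arginine carrier CAT1, had the lowest mean of all, -5.75 (SE 0.22, adjusted p = 4.33e-17), with arrays from -7.07 to -1.91 and a median of -5.85. Its reference spot was saturated on 18 of 24 arrays and its Cy5 signal exceeded background on 14, so the ratio is a limit set by both dyes. The array at -1.91 was S1 replicate 4, and no other exceeded -4.35. In the same family slc7a2, the relative of CAT2, was at 0.78, slc7a3a at 0.22 and slc7a6, a light chain that works with slc3a2, at -0.90. Of family 38, slc38a6 (-1.61), slc38a7 (-1.38) and slc38a11 (-1.27) were 2-fold down, and slc38a4 (0.65) was highest. The heavy chain slc3a2a was 2-fold up at 2.46 (adjusted p = 1.01e-16), while its duplicate slc3a2b was at 0.28. Across the 4 measured of 7 listed carrier partners, slc3a2a alone was 2-fold up, none was 2-fold down and none differed in S5, and nherf1a, a scaffold of brush border carriers, was at 0.17.

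Among organic ion carriers, slc47a1, the relative of the exporter MATE1 that drives organic cations out of cells in exchange for protons, averaged 2.27 (SE 0.08, adjusted p = 8.16e-18). Its 24 arrays ran from 1.33 to 3.63 with a median of 2.23, and all were above background in Cy5. slc22a4, the relative of the ergothioneine carrier OCTN1, averaged 1.13 (SE 0.14) but spread from -1.72 to 2.59. slc29a2, of the equilibrative nucleoside carriers, had the lowest ratio of the group at -1.37, on a Cy5 signal above background on 2 of 24 arrays. The others of family 22 lay between -0.91 for slc22a2 and 0.62 for slc22a6l.

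The vitamin and choline group held slc23a4, a nucleobase carrier in rat, at 1.13 (SE 0.11), and slc46a1, the relative of the proton-coupled folate carrier of the mammalian duodenum, at -1.64. The Cy5 signal of slc46a1 exceeded background on 4 of 24 arrays. slc33a1, which carries acetyl-CoA into the endoplasmic reticulum, was at 0.83 and slc45a2, a melanosome carrier, at 0.35. Of the ion exchangers, slc26a1, a sulfate carrier, was at 1.44 with Cy5 above background on 5 of 24 arrays, and slc24a4a, which exchanges sodium for calcium and potassium, at -1.81 with 3 of 24. The values of those dim probes rest mostly on signals not above background. The endosomal sodium-proton exchanger slc9a6a was at 0.73, and its relative slc9a7 at -1.32 and -0.33 by its 2 probes, of which the second was not above background in Cy5 on any array of S1 to S5. In the group of vesicle and phosphate carriers slc18b1, a vesicular polyamine carrier in mammals, was highest at 0.94 and slc20a2, a phosphate importer, lowest at -1.12. For slc20a2 the Cy5 signal exceeded background on 10 of 24 arrays.

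The 35 tested mitochondrial carrier probes had a median of 0.11, with 3 at least 2-fold up and 5 down. These shares were near the 7.58% up and 11.9% down of all tested probes. The widest contrast was among the ADP/ATP carriers, which exchange ADP for ATP across the inner membrane. slc25a6 was at 1.22 (SE 0.06, adjusted p = 9.76e-15), with arrays from 0.54 to 1.86. slc25a4, the form of mammalian heart and skeletal muscle, was at -4.04 (SE 0.17, adjusted p = 2.20e-16), with a median of -4.20. slc25a5 was at -0.10, but its Cy5 spot was saturated on 21 of 24 arrays and its Cy3 spot on 4, so no ratio is read from it. The ratios of slc25a6 and slc25a4 did not overlap on any array of S1 to S5. On 1 array of S5, replicate 3, slc25a4 was at -0.62, against -3.94, -4.09 and -4.70 on the other S5 arrays. The mean of the 5 skeletal muscle markers was -1.66 on that array, against -4.61 to -4.02 on the other S5 arrays, and its part in the ratio was not tested.

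The other mitochondrial carriers 2-fold up were slc25a10b, the dicarboxylate carrier, at 1.07 and slc25a34 at 1.02. Those 2-fold down besides slc25a4 were slc25a1a, the citrate carrier (-1.65), slc25a26, the S-adenosylmethionine carrier (-1.41), slc25a39, a glutathione carrier in mammals (-1.25), and slc25a55b (-1.10). The Cy5 signals of slc25a1a and slc25a26 each exceeded background on 8 of 24 arrays, so their ratios rest mostly on signals not above background. The acylcarnitine carrier slc25a20, which feeds fatty acid oxidation, was at 0.81, and mitoferrin 1 (slc25a37), the iron importer that zebrafish red blood cells need to make haem, at 0.43. Of 8 measured genes in a list of mitochondrial neighbours, idh3a was 2-fold up at 1.04, and the outer membrane channels vdac1 and vdac3 were 2-fold down at -1.75 and -2.61.

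Of the 21 metal carrier probes, 3 were 2-fold up and 2 were 2-fold down, beside 7.58% and 11.9% of all tested probes. slc31a1, the copper importer CTR1, ran from 0.99 to 2.52 around a median of 2.19, and averaged 2.08 (SE 0.07, adjusted p = 8.88e-18). All 24 arrays were above background in Cy5, and the lowest, S5 replicate 3, is the array with the high muscle markers. Among zinc exporters of family 30 slc30a4 was highest at 1.00 (SE 0.04) and slc30a1a lowest at -0.60. Among zinc importers of family 39, 1 probe of slc39a9 was at 1.18 (SE 0.07), and slc39a13 (-1.71) and 1 probe of slc39a6 (-1.70) were lowest. For slc39a13 the Cy5 signal exceeded background on 11 of 24 arrays. The other slc39a9 probe ran from -0.74 to 0.09 over S1 to S5, with a median of -0.15. The list of metal handling genes had 8 of 13 members measured, with 1 at least 2-fold up and 3 down: metallothionein mt2 (-2.50), which binds zinc and copper, the plasma ferroxidase cp (-1.28) and the metalloreductase steap4 (-1.24). The 1 that was up was ftr82 (2.57), whose family of zinc-finger ubiquitin ligases is not known for moving metals, and the copper-requiring enzyme sod1 was at 0.11.

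In the nucleotide sugar family, slc35d1b, which in mammals carries UDP-glucuronic acid and UDP-N-acetylgalactosamine into the endoplasmic reticulum, averaged 2.13 (SE 0.08, adjusted p = 1.57e-17) over arrays from 0.72 to 3.15. slc35f2 had the lowest ratio, -3.31 (SE 0.21), with Cy5 above background on 7 of 24 arrays. The 13 remaining probes all lay within 2-fold of the whole fish. Of the 5 measured among 10 listed Golgi glycosylation genes, the fucosyltransferase fut8a was 2-fold up at 1.91, none was 2-fold down and none differed in S5.

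Of the 15 genes with 2 spots, some gave unlike values. The 2 probes of slc39a9 differed by 1.43 in their mean over S1 to S5, those of slc17a9b by 1.12, slc9a7 by 0.99, slc30a6 by 0.87 and slc39a6 by 0.78. For slc39a9, slc17a9b, slc9a7 and slc39a6 1 probe passed the 2-fold limit and the other did not. The gaps of the other 10 genes ran from 0.03 to 0.42. The 5 pairs of duplicated genes with both copies among the carriers differed by 0.10 to 0.70, most for slc16a9a and slc16a9b. The means were for example 0.36 and 0.69 for slc25a3a and slc25a3b, which supply phosphate for ATP synthesis. Those of slc20a1a and slc20a1b were -0.39 and 0.26. Over all segments the Cy5 signal of slc20a1a exceeded background on 2 arrays, so its mean rests mostly on signals not above background.

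Along S1 to S5, 14 of the 121 probes passed the F test, 11.6% beside 5.65% of all tested probes. The comparison of S5 with S1 to S4 asked what marks the start of the caudal intestine, which the study treats as a transition. In S5, 9 probes of 8 genes were higher and 3 probes were lower, 7.44% and 2.48% beside 2.54% and 2.56% of all tested probes. The 9 came from 7 roles, with 2 amino acid carriers, 2 probes of the nucleotide sugar family, and 1 each of organic ions, choline, ion exchange, vesicles and metals. On 4 of the 9 probes every S5 array lay above every array of S1 to S4, 3.31% of the carriers beside 0.608% of all tested probes, and on no probe did every S5 array lie below, beside 0.444%. Among the 88 tested probes of the other solute carriers 10 were higher and 9 lower, both larger shares than among the 121 probes.

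The largest rise in S5 was that of slc22a6l, a relative of the organic anion transporter OAT1, which takes up anionic drugs and metabolites in kidney tubules of mammals. S5 had ratios of 3.07, 2.88, 2.41 and 2.22. The 20 arrays of S1 to S4 lay between -0.84 and 1.31, the 5 of S4 having 1.31, 0.24, 1.04, 0.93 and -0.01. All S5 arrays thus lay above all others, and the difference was 2.54 (SE 0.19, limma adjusted p = 9.17e-09). The Cy5 signal was above background on 3 of 4 S5 arrays and on none of the 20 others, so the signal in S5 was at least 4.69-fold higher, computed from the mean Cy5 signal of S5 and the dimmest signals above background on the other arrays. This gene and slc38a7 fell outside the rule for naming genes, which asks for a signal above background on every S5 array, and were chosen after their values were seen.

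slc44a4, of the choline transporter-like family, takes up thiamine pyrophosphate made by bacteria in the human colon. Its S5 arrays read 1.58, 1.60, 1.50 and 1.52, and the arrays of S1 to S4 ran from -1.37 to 0.43 with a median of -0.25. The S5 arrays were tightly grouped and all above the rest, with a difference of 1.83 (SE 0.18, adjusted p = 4.75e-07). Both probes of slc35f6, an orphan of family 35, rose as well. The first read 1.25, 1.90, 0.62 and 0.97 in S5 against -1.36 to 0.57 elsewhere, a difference of 1.53 (SE 0.21, adjusted p = 3.53e-05). The second read 1.12, 0.99, 0.42 and 0.41, a difference of 1.28 (SE 0.13, adjusted p = 9.21e-07). S5 replicates 1 and 2 were the highest arrays for both probes.

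**Figure D3:**
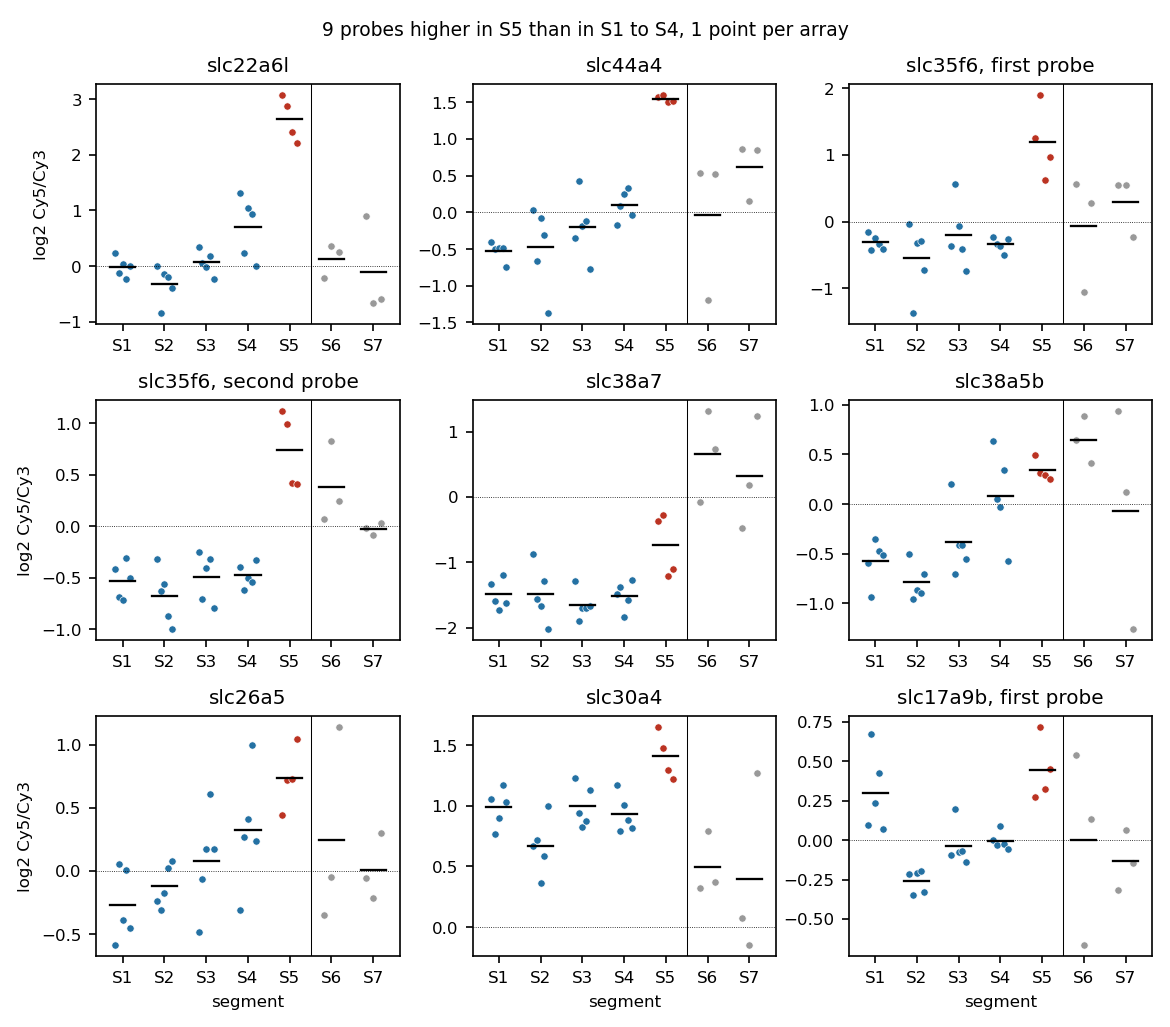
Each panel plots log2 Cy5/Cy3 of 1 of the 9 probes higher in S5 on every array, against the segment, and bars are segment means and a vertical line separates S5 from S6. For slc22a6l, slc44a4 and both slc35f6 probes the S5 arrays stand above all arrays of S1 to S4, and for the other 5 probes they overlap.

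The remaining 5 rises were smaller, and the arrays of S5 and S1 to S4 overlapped. slc38a5b, a glutamine carrier of system N whose spot was annotated under the older symbol slc38a3, had 0.49, 0.31, 0.30 and 0.26 in S5 against -0.96 to 0.63 elsewhere (difference 0.75, SE 0.16, adjusted p = 0.00459). S4 reached the S5 level for this gene on 2 arrays, at 0.63 and 0.34. slc38a7, which exports glutamine from lysosomes in mammals, had -0.37, -0.28, -1.21 and -1.10 against -2.02 to -0.87 (difference 0.79, SE 0.17, adjusted p = 0.00641). slc26a5, the zebrafish prestin of the anion exchanger family, had 0.44, 0.72, 0.73 and 1.04 against -0.59 to 1.00 (difference 0.73, SE 0.18, adjusted p = 0.0151).

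slc30a4, which loads zinc into vesicles, had 1.65, 1.48, 1.30 and 1.23 in S5 against 0.36 to 1.23 elsewhere (difference 0.52, SE 0.11, adjusted p = 0.00413). Only its lowest S5 array touched the range of the others. slc17a9b, the vesicular nucleotide carrier that fills vesicles with ATP, had 0.28, 0.72, 0.33 and 0.45 by 1 probe against -0.35 to 0.67 (difference 0.44, SE 0.10, adjusted p = 0.00657). S1 overlapped S5 for that probe, with means of 0.30 and 0.44. The other slc17a9b probe differed by 0.19 (adjusted p = 0.387), but passed the F test over S1 to S5 (adjusted p = 0.0411), its mean being highest in S1 at -0.73. Of the metal handling list, the copper-exporting ATPase atp7a rose in S5 by 1.21 (SE 0.18, adjusted p = 0.00017), and no other listed gene of that kind passed.

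Lower in S5 were slc25a3b, slc39a9 by 1 probe and slc35e1. slc25a3b, the mitochondrial phosphate carrier, had 0.12, 0.16, 0.32 and 0.49 in S5 against 0.43 to 1.12 with a median of 0.79 (difference -0.52, SE 0.11, adjusted p = 0.00437). Only the highest S5 array overlapped the others. slc39a9, a zinc importer of the secretory pathway, had -0.58, -0.74, -0.69 and -0.60 by 1 probe, against -0.59 to 0.09 (difference -0.49, SE 0.11, adjusted p = 0.00585), while its other probe differed by -0.15 (adjusted p = 0.73). slc35e1, named after its values were seen, differed by -0.40 (adjusted p = 0.0327), with Cy5 above background on 2 of the 20 arrays of S1 to S4 and none of S5. slc25a25a, an ATP-magnesium and phosphate carrier, had a difference of -1.16 that did not pass (adjusted p = 0.0637). Its S5 arrays read -1.20, -0.75, -0.73 and -1.12, and in each of S1 to S4 the lowest array was replicate 1, at -1.14, -1.14, -0.71 and -0.85. Among the mitochondrial neighbours the matrix enzyme mdh2 fell by 0.59 in S5 (adjusted p = 0.00151).

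Other markers moved with S5. All 4 measured exocrine pancreas markers were higher in S5, their mean running from 0.82 to 1.72 in S5, from 0.56 to 1.30 in S4 and from -0.46 to 0.38 in S1 to S3. Of 3 measured markers of lysosome-rich enterocytes, dab2 and ctsl.1 were higher in S5, and the mean of the 3 ran from -0.72 to -0.01 in S5 and from -3.71 to -1.98 in S1 to S4. Of 10 enterocyte markers 4 were lower in S5 and fabp6, the ileal bile acid binding protein, higher by 6.68. The part of these markers in the carrier differences was not tested. With the fit on all 30 arrays, 4 probes stayed higher, namely slc22a6l, slc44a4 and both of slc35f6, and none lower. The S5 arrays all belong to the 392 and 460 pixel class, and within that class slc38a5b (adjusted p = 0.055) and slc26a5 (adjusted p = 0.063) did not pass. With spot size as a block all 9 rises and the falls of slc25a3b and slc39a9 remained. The fall of slc35e1 was not checked under that block. Without S5 replicate 2, slc38a7 (adjusted p = 0.0714), slc17a9b (adjusted p = 0.073) and slc26a5 (adjusted p = 0.057) did not pass, nor did slc26a5 without S5 replicate 5 (adjusted p = 0.0805). With the Cy5 signal alone slc26a5, slc30a4, slc17a9b, slc25a3b and slc39a9 did not pass (adjusted p = 0.0782, 0.0666, 0.427, 0.232 and 0.352). Median centring ended the calls of slc25a3b and slc39a9 (adjusted p = 0.185 and 0.149). On the authors' values slc39a9, slc17a9b and slc22a6l did not pass (adjusted p = 0.324, 0.0769 and 0.0606). The slc39a9 call also ended with no background correction (adjusted p = 0.0683).

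In S3 and S4 together against S1 and S2, 3 probes were higher and none lower, 2.48% and 0% beside 0.963% and 0.874% of all tested probes. slc47a1 had 2.48, 3.63, 2.23, 2.79 and 2.54 in S3 and 2.69, 2.44, 2.16, 2.42 and 1.94 in S4. The rostral arrays were between 1.77 and 2.22 in S1, and 1.58, 1.76, 1.41, 1.33 and 2.35 in S2. S3 and S4 were thus mostly above S2, with overlap, and the difference was 0.68 (SE 0.17, limma adjusted p = 0.0359).

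For slc25a6, the ADP/ATP carrier that was above the whole fish, the means of S1 to S5 were 1.01, 0.81, 1.28, 1.60 and 1.39. S4 had 1.83, 1.66, 1.75, 1.75 and 1.03, S2 0.84, 0.61, 0.68, 0.54 and 1.36, and the difference of S3 and S4 from S1 and S2 was 0.53 (SE 0.13, adjusted p = 0.0377). slc38a5b, which was also higher in S5, had means of -0.58, -0.79, -0.38, 0.09 and 0.34 and a difference of 0.54 (SE 0.13, adjusted p = 0.0287). Its ratio was lowest in S2 and higher in each segment after it, and neighbouring segments overlapped.

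These 3 calls were narrow, and leaving out 1 array at a time ended that of slc47a1 in 13 of 24 cases, of slc38a5b in 7 and of slc25a6 in 15. The 120-pixel arrays are 6 of 10 in S1 and S2 and 1 of 10 in S3 and S4. With spot size as a block slc38a5b differed by 0.46 (adjusted p = 0.156) and slc25a6 by 0.63 (adjusted p = 0.0513), and slc47a1 still passed. Within the 392 and 460 pixel arrays none of the 3 passed, at 0.65 for slc47a1 (adjusted p = 0.206), 0.46 for slc38a5b (adjusted p = 0.362) and 0.54 for slc25a6 (adjusted p = 0.241). Within the 120-pixel arrays the differences were 1.72, -0.03 and 0.52 (adjusted p = 0.0854, 0.971 and 0.559). Exocrine pancreas markers moved the same way, 3 of 4 being higher in S3 and S4, and 2 of 4 liver markers and 2 of 5 enteroendocrine markers were lower. Their part in the carrier differences was not tested.

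Both carriers that passed the F test without passing either contrast in any probe, slc35d1b and slc38a4, were highest in S1. slc35d1b had 2.81, 2.92, 3.15, 2.98 and 3.03 in S1, and the highest array elsewhere was at 2.51. S1 lay above every array of S2 to S5, whose means were 2.08, 2.24, 1.72 and 1.63 (F = 10.1, adjusted p = 0.00397). slc38a4, a sodium-coupled carrier of neutral amino acids that is abundant in mammalian liver, had 0.61, 2.37, 2.48, 1.94 and 1.29 in S1. Its means in S2 to S5 were 0.36, 0.04, 0.57 and 0.52, and S1 replicate 1 lay within their range (F = 9.76, adjusted p = 0.00461). slc7a2, an arginine carrier, had its highest mean in S1, 1.29 against 0.60 to 0.68, but did not pass the F test. The mean of 4 liver markers ran from -0.29 to 0.33 in S1 and from -2.52 to -0.38 in S2 to S5, and its part in these S1 values was not tested.

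**Figure D4:**
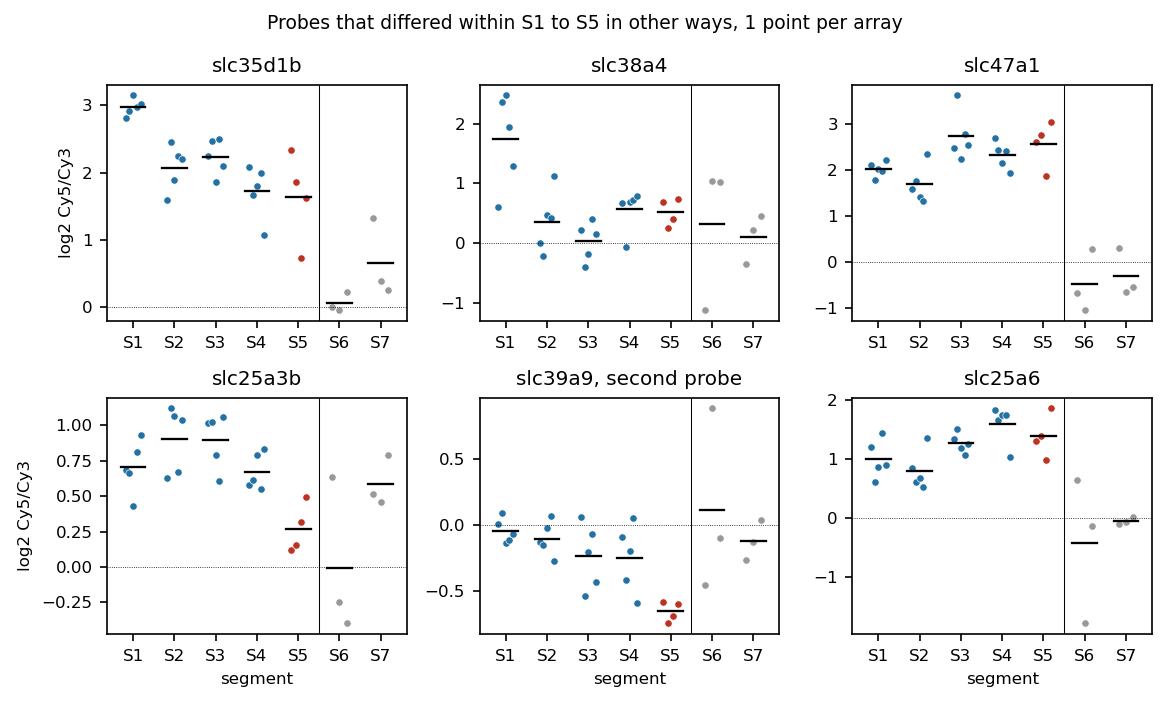
Each panel plots log2 Cy5/Cy3 of 1 probe on every array against the segment, for carriers highest in S1 (slc35d1b, slc38a4), higher in S3 and S4 (slc47a1, slc25a6) or lower in S5 (slc25a3b, 1 probe of slc39a9), with bars at segment means. The 5 S1 arrays of slc35d1b lie between 2.81 and 3.15, above all arrays of the other segments.

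S6 and S7 were compared with S1 to S5 in a fit on all 30 arrays. Against S1 to S5, 36 carrier probes were higher in S6 and 37 lower, 29.8% and 30.6% beside 26.1% and 25.2% of all tested probes. In S7, 32 were higher and 34 lower, 26.4% and 28.1% beside 26.8% and 25.6%. Carriers far from the whole fish in S1 to S5 were near it in S6 and S7, as the plot of S6 and S7 shows. The ratios of the 121 probes ran from -1.16 to 1.39 in S6 and from -0.97 to 1.27 in S7, and the slope of a line through them against S1 to S5 was 0.01 in S6 and 0.03 in S7. All tested probes gave slopes of 0.05 and 0.07, so this flattening was shared by the arrays as a whole, and a change of tissue and a change of array quality cannot be told apart.

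Among the carriers that were high in S1 to S5, slc16a6b had 0.08, 0.00 and -0.22 in S6 and -0.17, -0.89 and -0.02 in S7. Its Cy5 signal exceeded background on 1 of 3 arrays in each. slc47a1 differed by -2.75 in S6 (SE 0.26, limma adjusted p = 1.18e-09) and -2.57 in S7, slc31a1 by -2.17 and -1.70, and slc35d1b by -2.07 and -1.48. The 3 S6 arrays of slc47a1 ran from -1.05 to 0.29. In S7 slc31a1 and slc16a9a were not above background on any array. Their Cy5 signals on the arrays of S1 to S5 were at least 9.54-fold and 5.82-fold higher. The log2 ratios differed by less, -1.70 and -1.55. These folds compare 1 dye between sets of arrays that stand apart, so they are not read as minimum differences between the tissues. Among those that were low, slc16a3b differed by 4.43 in S6 and 4.66 in S7, and slc25a4 by 4.16 and 3.61. Their Cy5 signals rose by less than these ratios. The mean log2 Cy5 of slc16a3b was 9.92 in S1 to S5, above background on 11 of 24 arrays, and 11.46 and 11.87 in S6 and S7. That of slc25a4 was 9.25 in S1 to S5 and 11.26 and 10.98 in S6 and S7. No difference is read for slc7a1b, whose reference spot was saturated on most arrays of S1 to S5 and whose Cy5 signal exceeded background on 1 of 3 arrays in S6 and in S7. Its mean log2 Cy5 signal was 8.21 and 9.28 there against 9.88 in S1 to S5. slc25a34 was at 1.02 in S1 to S5, 1.02 in S6 and 1.09 in S7, and neither difference passed (adjusted p = 0.993 and 0.823).

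Some other carriers, from -1.25 to 0.36 in S1 to S5, also had higher ratios in S6 and S7, with Cy5 above background on all 6 arrays. slc22a7b.1, a relative of the organic anion transporter OAT2, differed by 1.55 in S6 (SE 0.25, adjusted p = 7.93e-06) and 1.51 in S7 (SE 0.25, adjusted p = 1.07e-05). In S1 to S5 its Cy5 signal exceeded background on 4 of 24 arrays, so its ratio there rests mostly on signals not above background. slc22a2, of the organic cation transporters, differed by 1.46 and 0.86, slc25a39 by 1.22 and 1.18, and 1 probe of the zinc exporter slc30a5 by 1.04 and 0.92. With the Cy5 signal alone slc25a39 differed by -0.20 in S6 (adjusted p = 0.516). The slc22a2 difference in S7 did not pass without S7 replicate 3 (0.67, adjusted p = 0.0813) or 4 (0.69, adjusted p = 0.0716), nor that of slc30a5 in S6 without S6 replicate 5 (0.55, adjusted p = 0.0856) or in S7 with no background correction (0.52, adjusted p = 0.059). The second slc30a5 probe differed by -0.05 and 0.03 and did not pass. Skeletal muscle markers had a mean of -4.61 to -1.66 on arrays of S1 to S5. That mean was -1.18 to -0.13 in S6 and -1.71 to -1.41 in S7. Markers of some other tissues were also near the whole fish there. The mean of 10 enterocyte markers was 0.13 to 0.29 in S6 and -0.51 to 0.04 in S7. The ovary marker zp3b, at -5.5 in S1 to S5, was at -0.22 to 0.06 and -0.78 to 0.66. Exocrine pancreas markers were not, with a mean of 1 to 2.37 and 1.53 to 2.87. The part of muscle RNA was not tested.

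Between S7 and S6, 3 carrier probes were higher in S7 and 2 lower, 2.48% and 1.65% beside 3.73% and 4.68% of all tested probes. The mitochondrial oxoglutarate carrier slc25a11 had -0.25, -0.23 and 0.77 in S6 and 1.57, 0.93 and 1.21 in S7, a difference of 1.14 (SE 0.30, adjusted p = 0.0183) without overlap. The vesicular glutamate carrier slc17a6a differed by 1.12 (adjusted p = 0.0156), and slc35a5 by -0.83 (adjusted p = 0.038) and slc25a44a, a carrier of branched-chain amino acids in mammals, by -1.06 (adjusted p = 0.0269). The arrays of S6 and S7 overlapped for slc17a6a and slc35a5. Cy5 exceeded background for slc25a11 on 3 of 3 S7 arrays and 2 of 3 S6 arrays, and for slc17a6a on 2 of 3 S7 arrays and 1 of 3 S6 arrays. For slc35a5 and slc25a44a it did so on 3 of 3 S6 arrays and 1 of 3 S7 arrays. The third probe counted as higher, of slc35e1, was not above background on any S7 array, and no difference is read from it. Without S7 replicate 5, slc25a44a differed by -0.48 (adjusted p = 0.274), slc35a5 by -0.58 (adjusted p = 0.24), slc17a6a by 1.03 (adjusted p = 0.0726) and slc25a11 by 1.15 (adjusted p = 0.0581), so that none of the 4 passed. With no background correction none of these 5 passed, and none did on the authors' own values.

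**Figure D5:**
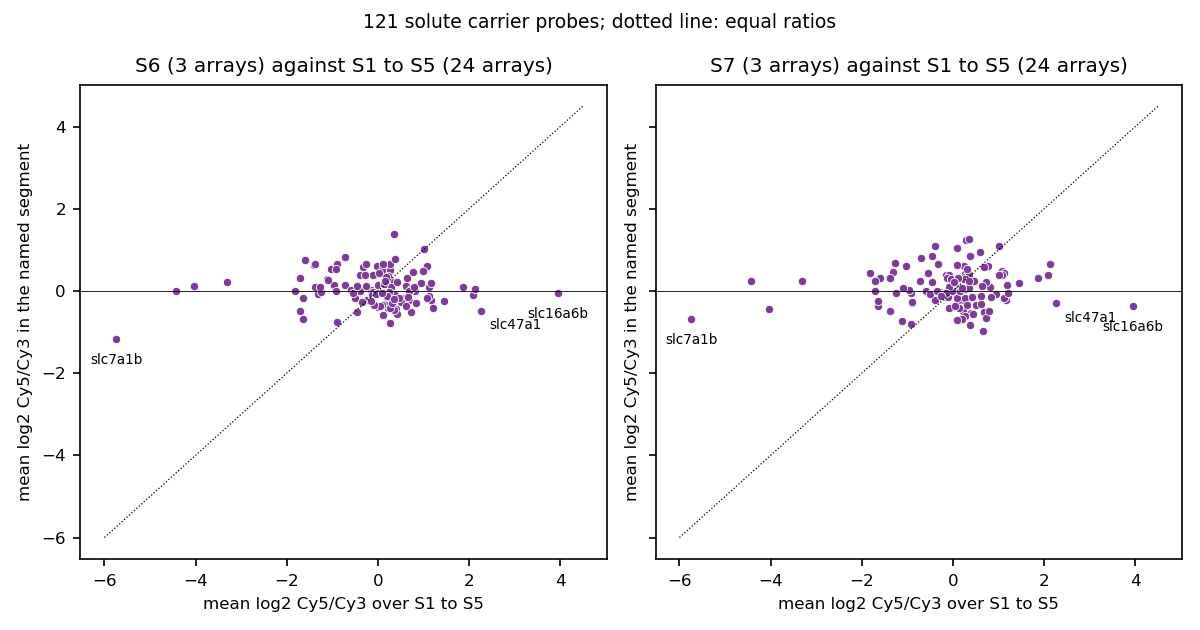
Each point is 1 of the 121 probes, with its mean log2 Cy5/Cy3 over S1 to S5 on the horizontal axis and its mean over the 3 arrays of S6 (left) or S7 (right) on the vertical axis. The points lie in a flat band between -1.16 and 1.39 and not along the dotted line of equal ratios, and slc16a6b and slc7a1b, at 3.95 and -5.75 in S1 to S5, are the ends of the band.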

How the data were processed

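Spotted oligonucleotide arrays of 23232 spots were used, 30 in all. The authors deposited intensity values as scanner readings of each spot and its local background in both dyes, without normalization. The log2 values were deposited by the authors as ratios of Cy5 to Cy3, each array shifted by its own constant from the plain ratio, and served as an alternative. The labels name 20 µg of RNA per dye and direct incorporation of dye, and the study's methods another amount and an indirect method.

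Background was corrected in limma 3.58.1 under R 4.3.3 by normexp with an offset of 50, and log2 ratios were normalized by loess within arrays, with 245 control spots (printed at least 10 times) left out. A probe was tested if some segment had 3 or more arrays on which its median exceeded background by 2 SD in 1 of the dyes, and if every segment had 2 or more values. This left 21395 probes. A spot at 65000 or more was called saturated.

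Of the 123 carrier symbols, 99 were updated through a synonym of the GRCz12tu gene table and 24 were current. Contrasts within S1 to S5 were fitted on 24 arrays and those with S6 or S7 on 30, with lmFit and eBayes and Benjamini-Hochberg adjusted p under 0.05 over all tested probes. The 2-fold limit applied to S1 to S5 against the whole fish. Files were read with the R package data.table, version 1.17.8, and the fit was tested on simulated data. The members and lists were chosen with earlier results of these data known. Named were the 12 highest and 12 lowest genes and the highest and lowest of each family with 3 or more genes, up to 15 genes per direction for contrasts within S1 to S5, up to 8 for S6 and S7, up to 5 for S7 against S6, up to 8 by the F test alone, the genes whose probes disagreed, paralog pairs and the listed partners. Some carriers in the text were named outside this rule, among them slc25a25a, slc25a34, slc25a55b, slc25a5, slc38a11, slc18b1, slc33a1, slc45a2, slc29a2, slc7a3a and slc7a6. A bound on a fold compares mean normalized Cy5 signals with the dimmest signals above background. Replicates of a segment came from separate pools per the labels and methods, and whether different segments came from the same fish is not stated. No sequence is shown because none was in the files used here.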

Additional observations from a re-analysis of the deposited data

Results flagged for a closer look

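In 8 of 125 groups of 4 or 5 arrays examined (25 probes in S1 to S5), 1 array lay far from the rest by Dixon's test, of which chance flags about 1 in 20. S3 replicate 2, the single S3 array read over 120 pixels, was apart for both probes of slc17a9b, at -1.61 where the others had -1.25 to -1.15 and at 0.20 where the others had -0.14 to -0.07. S4 replicate 5 was low for slc25a6, at 1.03 against 1.66 to 1.83, and for slc31a1, at 1.72 against 2.33 to 2.49. S2 replicate 5 was low for slc25a4, at -5.20 against -3.79 to -3.43. S5 replicate 3 was high for slc25a5, at 0.20 against -0.19 to -0.17, on a spot that was saturated on most arrays. S4 replicate 2 was low for slc38a4, at -0.05 against 0.68 to 0.80, and S1 replicate 5 was low for slc44a4, at -0.75 against -0.50 to -0.40. The causes were not tested.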

How the results depend on the processing

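The first set of alternatives includes the fits that leave out 1 array at a time, which share nearly all arrays with the main fit. Over that set, 3202 values of named probes were counted as kept, 112 lost the threshold, 10 gained it and 1 reversed. Kept means the same side of the threshold, or a change of sign in a value that had not passed in the main fit. Those added after seeing the data kept 136, lost 25 and reversed 3. The reversals were slc39a3 against the whole fish on the authors' values (-0.12), slc25a39 in S6 (-0.20) and slc25a11 in S7 (-0.22) with the Cy5 signal alone, and slc38a5b in S3 and S4 within the 120-pixel arrays (-0.026). Counts of carrier probes moved as follows, with causes not tested beyond fewer arrays or another spread. With no 2-fold limit, 61 were up and 41 down against the whole fish, and on the authors' values 32 were down. In S5, the fit on 30 arrays gave 4 higher and 0 lower, median centring 0 lower, the Cy5 signal alone 1 lower and the 392 and 460 pixel arrays 5 lower. For the S5 call of slc22a6l the authors' values gave 3.86 (adjusted p = 0.0606). In S3 and S4, the number higher was 0 with median centring, the authors' values, the fit on 30 arrays, the Cy5 signal alone and the 120-pixel arrays, and 1 in the 392 and 460 pixel arrays. The number lower was 3 with no background correction, 2 with median centring, 2 with scale normalization between arrays, and 1 with the authors' values, the spot size block and the Cy5 signal alone. By the F test over S1 to S5, 7 passed in the fit on 30 arrays and 6 in the 392 and 460 pixel arrays. S7 against S6 gave 0 in both directions with no background correction and with the authors' values, and 15 higher and 16 lower with the Cy5 signal alone.

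The study does not say whether arrays of 1 replicate number come from the same fish, and the arrays were not treated as paired: deviations correlated at a mean r of 0.05 (-0.63 to 0.52) over 46 same-number pairs, 16 of them over 0.1, and at -0.01 over 184 others. With the replicate number as a block, 9 carrier probes were higher and 5 lower in S5, and the S3 and S4 difference of slc25a6, 0.53, did not pass (adjusted p = 0.0579).

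Leaving out 1 array at a time gave 13 to 15 up and 19 to 20 down against the whole fish, 6 to 10 higher and 2 to 8 lower in S5, 0 to 6 higher and 0 to 1 lower in S3 and S4, and 9 to 21 by the F test over S1 to S5. In S6 it gave 30 to 38 higher and 26 to 38 lower, in S7 31 to 34 and 23 to 35, in S7 against S6 0 to 7 and 0 to 6, and 24 to 29 by the F test over the 7 segments. The number lower in S5 was 5 without S2 replicate 1, 8 without S2 replicate 5 and 6 without S5 replicate 1, and the F test gave 9 without S5 replicate 2. The number higher in S3 and S4 was 0 without S1 replicate 2, S2 replicates 2, 3 or 4, or S4 replicates 1 or 4, 1 without S1 replicate 3, S2 replicate 1, S3 replicate 1 or S4 replicate 3, and 6 without S4 replicate 5. Probes whose Cy5 signal was not above background on most arrays give little more than the ratio of background to reference.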
